A study of Mus musculus with 6 samples.

Results

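The subunits of oxidative phosphorylation were followed in hippocampal RNA from mice that had received chronic substance P (SP) or vehicle. The members were all rows of the gene count table whose symbol begins with Ndufa, Ndufb, Ndufc, Ndufs, Ndufv, Uqcr, Cox4 to Cox8 or Atp5, together with *Sdha*, *Sdhb*, *Sdhc*, *Sdhd*, *Cyc1* and the protein genes of the mitochondrial genome. Names marked as pseudogenes or related sequences were left out, which removed 9 rows. Of these, *Ndufb1-ps* had 835 to 1012 counts per library, and the others had at most 3. The processed pseudogenes *Ndufb4c*, *Ndufa11b*, *Ndufs6b* and *Cox6c2* carry no such mark in their names and stayed in. The rule gave 112 of 55421 genes, 99 encoded in the nucleus and 13 in the mitochondrion. Complex I held 46 members, complex II 4, complex III 10, complex IV 24 and complex V 20, and 8 more were Ndufaf genes, assembly factors of complex I that are not subunits of the finished enzyme. *Ndufa4* and *Ndufa4l2* were counted with complex IV, where the NDUFA4 protein is found.

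Oxidative phosphorylation makes most of the ATP of a neuron. Complexes I and II pass electrons from NADH and succinate to ubiquinone, complex III passes them on to cytochrome c, and complex IV reduces oxygen, while complexes I, III and IV pump protons that complex V uses to make ATP. Complex II is built from nuclear genes alone, and each of the other complexes joins proteins made from nuclear genes to a few made inside the mitochondrion.

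All 6 mice were wild-type C57BL/6N males of 8 to 10 weeks. Of these, 3 received SP (10 µM, 100 µL) under the skin for 14 days in a row, and 3 received 100 µL of saline by the same route. Each mouse gave 1 library of poly(A) RNA from the whole hippocampus, and the labels number the mice 1 to 3 in each group and call this number a batch. Levels are given as CPM, the counts scaled to the normalized library size, and a positive fold change means a higher level in the mice labelled SP. Where values of a gene are joined by "against", the libraries vehicle 1, 2 and 3 come first and SP 1, 2 and 3 follow. Groups follow the labels as given. The table holds no gene that checks which mice received SP, so the labels were not tested, and an exchange of them would turn the sign of every fold change. In whole tissue, fewer cells of a type and less RNA per cell cannot be told apart.

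The libraries held 22349941 to 27605937 counts, and 3 counts correspond to 0.109 to 0.135 CPM. Some markers of other cell types moved with the groups. All 7 oligodendrocyte markers were higher in the libraries labelled SP, with a median log2 fold change of 0.35, and their summed level was 2116 to 2426 CPM in the libraries labelled vehicle and 2456 to 3545 CPM in those labelled SP. All 9 choroid plexus markers were lower, and their sum was 3863 to 4823 CPM in the libraries labelled vehicle but 180.2, 2845 and 4016 CPM in libraries SP 1, SP 2 and SP 3. Markers of the pineal and photoreceptor type summed to 77.1 CPM in library SP 2 and to 1.74 to 2.87 CPM in the other libraries. Of the 8 markers of hippocampal principal neurons, all present in every library, 7 were higher with SP (median log2 fold change 0.21, 3 with an unadjusted p under 0.05), and their sum was 4352 to 4640 CPM against 4461 to 5688 CPM. Of the 6 genes listed for parvalbumin interneurons, 4 were lower (*Gad1*, *Gad2*, *Syt2* and *Tac1*) and 2 higher (*Pvalb* and *Kcnc1*), with a median log2 fold change of -0.145. *Pvalb* itself had 0.13. *Syt2*, with -0.30, was the 1 with an unadjusted p under 0.05, and the sums overlapped (632 to 697 CPM against 573 to 665 CPM). All 5 blood markers were higher (median log2 fold change 0.23), and they summed to 175, 161 and 140.2 CPM against 206, 135 and 238 CPM. The part of these cells in the values below was not tested, and results are therefore also given without the mice of one number.

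Mitochondrial transcripts took most of the counts of the members. The 13 genes summed to 62215, 60532 and 69397 CPM in the mice labelled vehicle and to 67359, 54658 and 64261 CPM in the mice labelled SP, while the 99 nuclear-encoded members together gave 9129, 9557 and 8699 CPM against 9474, 9079 and 10008 CPM. Library SP 2 had the lowest mitochondrial sum and library vehicle 3 the highest, so that the groups overlapped in both sums.

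Several of the mitochondrial genes cannot be counted alone, because a stretch of chromosome 1 (minus strand, GRCm38) carries near-identical copies of them that are annotated as separate genes. The first 80 bases of *mt-Nd3*, a core subunit of complex I (chrM:9459-9538), and of its copy *Gm28438* (chr1:24613040-24613119) show how little there is to tell them apart. The capital marks the base that differs, T3C counted from 1 at the 5′ end, and it is the only difference over 345 aligned bases.
mt-Nd3: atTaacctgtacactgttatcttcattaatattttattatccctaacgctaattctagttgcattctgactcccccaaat
Gm28438: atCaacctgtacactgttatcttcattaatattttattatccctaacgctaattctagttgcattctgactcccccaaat

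The start of *mt-Co2*, a catalytic core subunit of complex IV (chrM:7013-7092), and of its copy *Gm28661* (chr1:24615486-24615565) is shown as a case with no difference at all, over 681 aligned bases.
mt-Co2: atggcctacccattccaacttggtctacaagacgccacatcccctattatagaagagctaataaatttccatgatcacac
Gm28661: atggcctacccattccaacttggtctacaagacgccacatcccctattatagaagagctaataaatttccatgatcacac

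A read from such a stretch matches both genes, and Salmon divides it between them. The copy held 79.2% to 81.5% of the summed counts of *mt-Co2* and 79.3% to 88.0% of those of *mt-Nd3*. For *mt-Nd4l*, *mt-Co3* and *mt-Atp6*, whose copies are identical over 294, 783 and 678 bases, the shares were 66.0% to 75.9%, 49.3% to 52.5% and 36.6% to 48.1%. The partial copy of *mt-Co1* took 6.90% to 9.32%, and that of *mt-Nd4* at most 0.230%. The part of these counts that comes from chromosome 1 was not tested. Adding the copies brought the libraries closer together for *mt-Nd3*, whose coefficient of variation over the 6 libraries went from 24.3% to 12.9%, for *mt-Nd4l*, from 17.2% to 5.96%, and for *mt-Atp6*, from 17.5% to 11.7%. It changed little for *mt-Co1* (7.26% both ways) and *mt-Co2* (8.25% to 7.97%), and for *mt-Co3* it went up from 8.46% to 9.88%. The levels of mitochondrial genes below are therefore sums with their copies, a choice made after seeing the data, and for the genes that share counts with a copy, fold changes are given both ways.

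**Figure D1:**
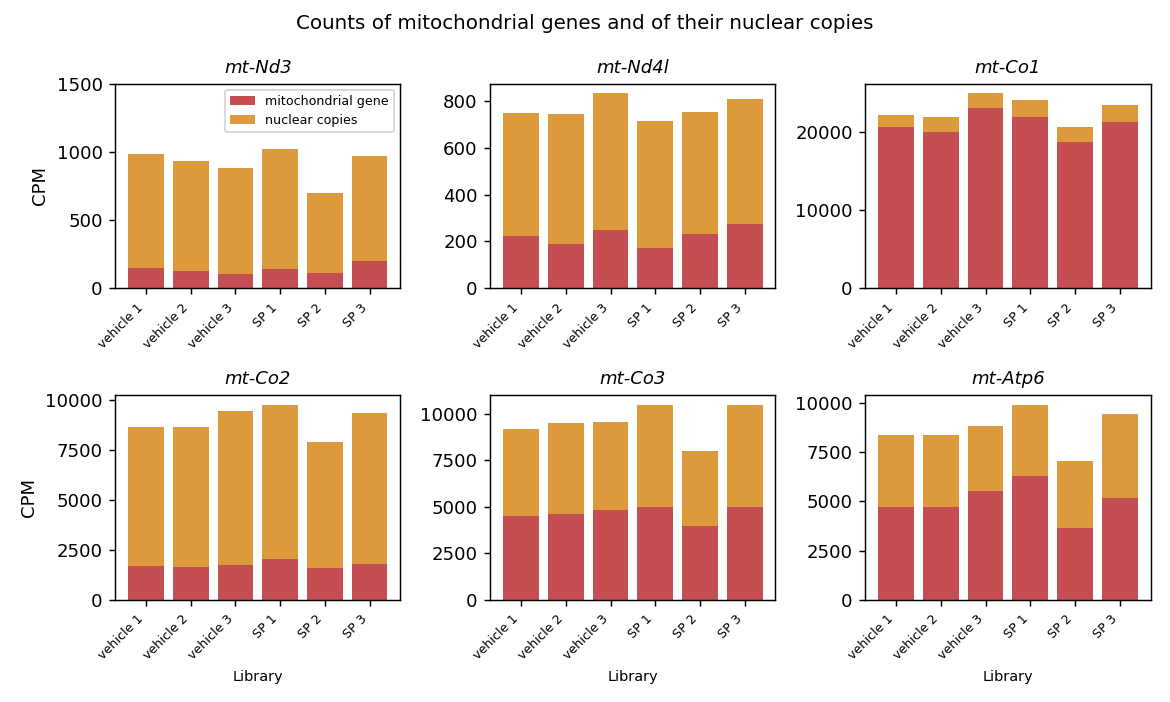
Stacked bars of CPM in each of the 6 libraries for 6 mitochondrial genes, with the counts given to the mitochondrial gene in red and those given to its nuclear copies in orange; each panel has its own axis from 0. The copies take most of the counts of *mt-Nd3*, *mt-Nd4l* and *mt-Co2*, and the sums vary less than the red parts for *mt-Nd3* and *mt-Nd4l*.

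Per kilobase of transcript, the mean level over 6 libraries was highest for the catalytic subunits of complex IV and for the proton channel of complex V. It was 14848 CPM per kb for *mt-Co1*, 13072 for *mt-Co2*, 12736 for *mt-Atp6* and 12174 for *mt-Co3*. *mt-Cytb*, the only mitochondrial subunit of complex III, *mt-Atp8* of complex V and *mt-Nd1* of complex I followed with 6802, 6327 and 6251 CPM per kb. The other subunits of complex I ran down from *mt-Nd4* at 5083 and *mt-Nd2* at 4002 to *mt-Nd3* at 2631, *mt-Nd4l* at 2581 and *mt-Nd5* at 2209 CPM per kb. *mt-Nd6*, the only member encoded on the other strand of the mitochondrial genome, stood at 116 CPM per kb. These levels come from poly(A) selected RNA, and how tail length bears on the order was not tested.

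Among nuclear members the levels per kb were lower by far. The highest in each complex were *Ndufb9* (169 CPM per kb), an accessory subunit of complex I, *Sdha* (115), the flavoprotein of complex II, *Uqcrh* (265), the hinge protein of complex III, *Cox8a* (509.7) of complex IV and *Atp5b* (468), the catalytic beta subunit of ATP synthase. The assembly factors were lower than most subunits, with *Ndufaf2* highest at 20.0 CPM per kb.

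**Figure D2:**
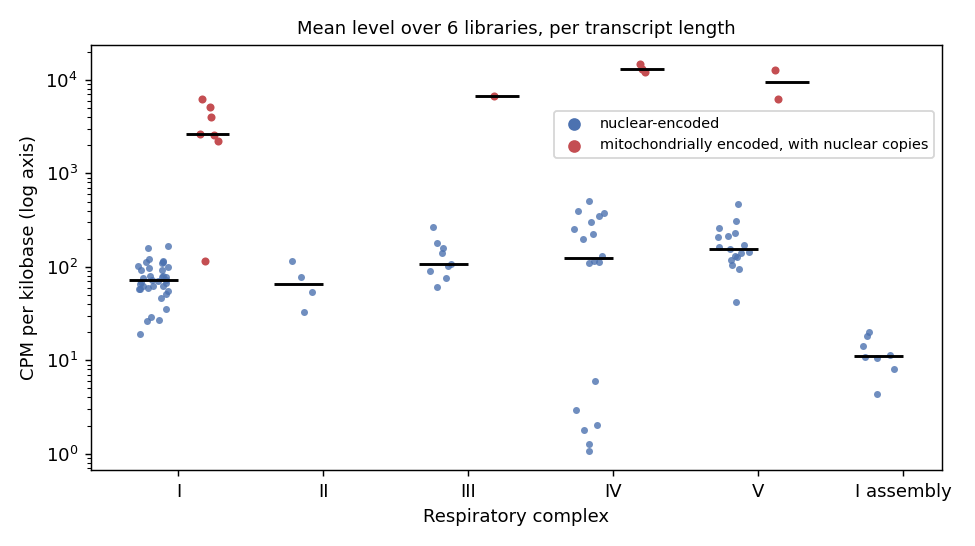
Mean CPM per kilobase over 6 libraries (log axis) for each member tested, by respiratory complex, with nuclear-encoded members in blue, mitochondrially encoded members with their copies in red, and black lines at medians. The red points lie between 116 and 14848 CPM per kb, and the lowest blue points of complex IV are rare isoforms and relatives of common subunits.

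With the replicate number as a block, no member was called at FDR < 0.1 and |log2FC| > 0.3 in edgeR's quasi-likelihood test, a rule that 0.0293% of all 17069 genes tested met. Of the 112 members, 106 passed the filter on low counts, 93 nuclear and 13 mitochondrial, and the lowest FDR (the Benjamini-Hochberg adjusted p) among them was 0.436. At an unadjusted p under 0.05 there were 4 higher members (4.48% of all genes) and 1 lower member (5.59% of all genes). The higher ones were *Ndufa7*, *Uqcrq*, *Cox7a2l* and *Cox6a1*, and the lower one was *Cox6b2*. This is 4.72% of the members tested beside 10.1% of all genes tested. The groups did not overlap for 9 members that were higher (9.19% of all genes) and 5 that were lower (9.03% of all genes), namely *Cox6b2*, *Ndufab1*, *Ndufaf1*, *mt-Nd5* and *mt-Nd6*. For 3 mice against 3, the smallest two-sided p of an exact permutation test is 0.1.

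The nuclear members nevertheless leaned to one side, by a small amount. The log2 fold change was above 0 for 76 of the 93 nuclear members tested, or 81.7%, and for 4 of the 13 mitochondrial members, beside 50.5% of all genes. The median log2 fold change was 0.078 for nuclear members, -0.038 for mitochondrial members and 0.0015 for all genes tested. Members share libraries and are not independent, so these shares carry no test. Here and below, medians of fold changes and numbers of members above 0 are without the copies.

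The lean of the nuclear members rested on the mice numbered 3. In the replicate pairs 1, 2 and 3, the median log2 ratio of nuclear members was 0.038, -0.067 and 0.23. These pairs are a match by number only, as deviations of same-numbered mice were hardly correlated (Pearson's r 0.0140, -0.0656 and 0.0734). Library SP 3 gave the highest level for 61 of the 93 nuclear members, and library vehicle 3 the lowest level for 54. The summed blood markers were likewise highest in SP 3 and lowest among the vehicle libraries in vehicle 3, though lowest of all in SP 2; their part in the lean was not tested. Without replicate 3 the median was -0.011, without replicate 2 it was 0.15 and without replicate 1 it was 0.067. Leaving out the mice numbered 2 brought 40 members under an unadjusted p of 0.05, 39 of them higher (5.34% of all genes) and 1 lower (6.1% of all genes), and still none was called. Without replicate 3 this number was 2, and the share of all genes was not counted for that fit.

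The mitochondrial members showed another order of the libraries. With the copies added, 11 of the 13 were lowest in library SP 2 and 7 were highest in library vehicle 3. Their summed level was 80641, 79157 and 88678 CPM with vehicle and 87889, 70874 and 85268 CPM with SP. Library SP 1, in which the choroid plexus markers were lowest, thus had a higher sum than libraries vehicle 1 and vehicle 2, and library SP 2, in which the pineal-type and oligodendrocyte markers were highest, had the lowest. The ratio of mitochondrial to nuclear members was 8.83, 8.28 and 10.2 with vehicle and 9.28, 7.81 and 8.52 with SP, so that the groups overlapped. Without the copies, the median log2 fold change of mitochondrial members was -0.12, -0.0059 and -0.041 when replicate 1, 2 or 3 was left out.

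**Figure D3:**
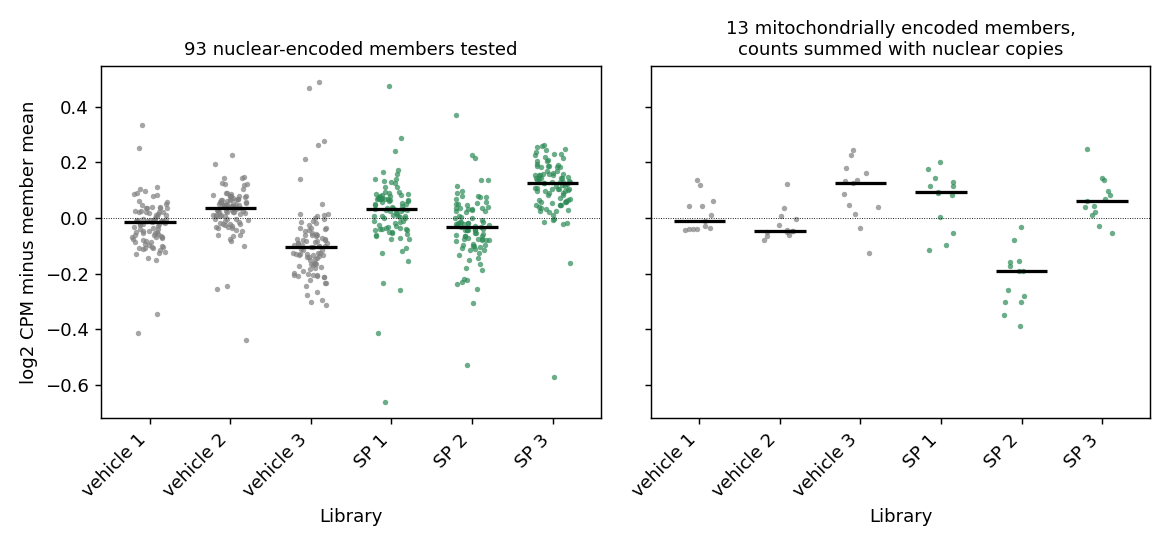
Log2 CPM of each member minus its own mean over the 6 libraries (vertical axis), for libraries labelled vehicle in grey and SP in green; each point is a member and black lines are medians. The median of nuclear members (left) is lowest in vehicle 3 and highest in SP 3, and that of mitochondrial members (right) is lowest in SP 2.

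The members are short genes, and short genes as a whole leaned to the side of the nuclear members. The 13 mitochondrial members, with a median length of 784 bases, leaned to the other side (median log2 fold change -0.038). The median transcript length of the members tested was 746 bases beside 2615 for all genes tested, and 84 of the 106 members lay among the 3410 shortest genes, of 150 to 1448 bases. All genes of that class had a median log2 fold change of 0.038, against -0.018 in the 3410 longest. After a correction of each library for length and GC content, the median was 0.045 for nuclear members, 0.054 for mitochondrial members and 0.031 for all genes. The part of length in the lean was not tested.

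Complex I oxidizes NADH on a peripheral arm of nuclear-encoded core subunits and pumps protons through a membrane arm built around the 7 mitochondrial ones. Of its 44 members tested, 32 had a log2 fold change above 0, with medians of 0.085 for the 37 nuclear and -0.079 for the 7 mitochondrial members. The 2 mitochondrial members among these 32, *mt-Nd3* and *mt-Nd4l*, fell below 0 with the copies (-0.076 and -0.033). The 7 nuclear core subunits had a median of 0.062 and the 30 accessory members one of 0.085. *Ndufv1*, which carries the NADH site, and *Ndufs1*, the largest subunit of the peripheral arm, had log2 fold changes of 0.12 and -0.0095.

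*Ndufa7*, an accessory subunit (ENSMUSG00000041881, chr17:33824572-33838317), had 35.2, 37.9 and 35.8 CPM with vehicle and 39.4, 40.3 and 42.6 CPM with SP. All libraries labelled SP lay above all labelled vehicle, though the step between library vehicle 2 and library SP 1 was small (log2 fold change 0.17, SE 0.063, adjusted p = 0.448). *Ndufa2*, another accessory subunit, had 32.3, 37.7 and 29.6 CPM against 37.5, 36.9 and 41.1 CPM. Its groups overlapped, because library vehicle 2 exceeded SP 1 and SP 2 (log2 fold change 0.22, SE 0.10, adjusted p = 0.501). *Ndufb9* had 115, 121 and 111 CPM against 125, 115 and 126 CPM, with overlapping groups and a log2 fold change of 0.077.

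Of the mitochondrial subunits of complex I, *mt-Nd5* and *mt-Nd6* were those whose libraries labelled SP all lay below those labelled vehicle. *mt-Nd5*, a proton-pumping subunit, had 4135, 3948 and 4758 CPM with vehicle and 3867, 3597 and 3868 CPM with SP (log2 fold change -0.18, adjusted p = 0.502). *mt-Nd6* had 65.9, 65.2 and 61.8 CPM against 60.0, 47.1 and 61.6 CPM, with library SP 2 lowest and only a narrow gap between library SP 3 and library vehicle 3 (log2 fold change -0.20, adjusted p = 0.510). Neither passed the test. Among the nuclear members of complex I, *Ndufab1* was also lower without overlap, with a log2 fold change of -0.051, and was not called.

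The remaining mitochondrial subunits of complex I had overlapping groups. *mt-Nd1* had 5996, 5769 and 6653 CPM against 6350.4, 4908 and 6216 CPM. *mt-Nd2* had 4251, 3989.6 and 4828 CPM against 4467, 3346 and 4044 CPM. Both were highest in library vehicle 3 and lowest in SP 2, with log2 fold changes of -0.083 and -0.15. *mt-Nd4* had 6795, 6615 and 7907 CPM against 7436, 6194 and 7079.8 CPM and the same extremes, with a log2 fold change of -0.038 without and -0.041 with its copy. *mt-Nd3* had 985, 931 and 885 CPM against 1026, 695 and 971 CPM with its copy, and its log2 fold change was 0.24 without the copy and -0.076 with it. *mt-Nd4l* had 749.8, 742 and 834 CPM against 715, 748 and 810.4 CPM, and its value likewise went from 0.025 to -0.033. For both genes the direction thus hung on how shared reads were assigned.

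The assembly factors of complex I gave no common direction: 5 of 8 were above 0, and the median was 0.011. *Ndufaf3* had 21.5, 19.7 and 16.9 CPM against 21.9, 21.7 and 24.5 CPM and *Ndufaf1* had 16.9, 16.5 and 16.2 CPM against 13.3, 15.1 and 16.0 CPM. Their groups did not overlap, in opposite directions (log2 fold changes 0.23 and -0.16), and neither passed the test. *Ndufaf2* had 13.2, 11.8 and 10.5 CPM against 13.4, 11.7 and 13.6 CPM, with overlapping groups.

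Complex II is also the succinate dehydrogenase of the citric acid cycle, and it has no mitochondrially encoded member. *Sdha* had 335, 343 and 318 CPM against 323, 337 and 337 CPM, with overlapping groups and a log2 fold change of 0.0014 (SE 0.053). The iron-sulfur subunit *Sdhb* and the membrane anchors *Sdhc* and *Sdhd* had log2 fold changes of 0.060, 0.047 and 0.11. All 4 members were lowest in library vehicle 3.

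In complex III, 8 of 10 members had a log2 fold change above 0, with a median of 0.046. *Uqcrq*, a small subunit of the membrane part (ENSMUSG00000044894, chr11:53427922-53430831), had 74.8, 79.6 and 69.9 CPM with vehicle and 81.9, 82.1 and 88.3 CPM with SP. Its groups did not overlap (log2 fold change 0.17, SE 0.068, adjusted p = 0.465). *Uqcr10*, another small subunit, had 54.7, 61.6 and 55.2 CPM against 61.9, 60.7 and 71.9 CPM, where library vehicle 2 exceeded SP 2 (log2 fold change 0.18, SE 0.081, adjusted p = 0.511). Of the subunits that carry electrons, *Cyc1*, the heme protein that hands electrons to cytochrome c, and *Uqcrfs1*, the Rieske iron-sulfur protein, had log2 fold changes of 0.024 and 0.014. *mt-Cytb* had 7702, 7421 and 8538 CPM against 8408, 6806 and 7818 CPM and a log2 fold change of -0.042, and was lowest in library SP 2. *Uqcrh* had 124, 129 and 111 CPM against 128, 117 and 144 CPM, with the lowest value in library vehicle 3 and the highest in SP 3.

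**Figure D4:**
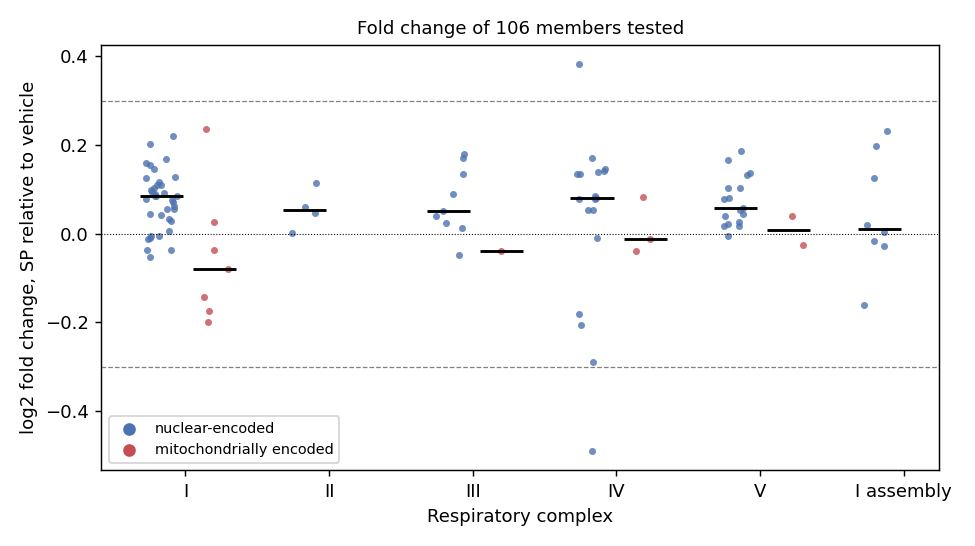
Log2 fold change, SP relative to vehicle, of each of the 106 members tested by complex (blue nuclear, red mitochondrial without copies; black lines are medians), with dashed lines at the fold change of 0.3 used for calls. Most blue points lie a little above 0, and the points beyond the dashed lines are *Cox4i2* and *Cox6b2*, both rare transcripts.

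Complex IV reduces oxygen to water, and 3 of its 21 members tested had an unadjusted p under 0.05, 2 higher and 1 lower, beside 10.1% of all genes. Its catalytic core comes from the mitochondrion. *mt-Co1* had 22293, 21921 and 25107 CPM against 24215, 20549 and 23559 CPM. *mt-Co2* had 8679.7, 8608 and 9463 CPM against 9746, 7809 and 9342 CPM. *mt-Co3* had 9229, 9486 and 9609 CPM against 10497, 7954 and 10493 CPM. All 3 were lowest in library SP 2, with log2 fold changes of -0.022, 0.0027 and 0.020, each smaller than its standard error. Without the copies the log2 fold changes were -0.040, 0.082 and -0.013, so that the sign for *mt-Co3* turned, and that of *mt-Co2* was then slightly larger than its SE of 0.078.

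The nuclear subunits that surround this core exist in part as tissue isoforms. *Cox6b2* (ENSMUSG00000051811, chr7:4751792-4753094), an isoform best known from testis, was the lower member, with 2.62, 2.99 and 3.59 CPM with vehicle and 1.62, 2.37 and 2.60 CPM with SP. The highest library labelled SP lay just under the lowest labelled vehicle (log2 fold change -0.49, SE 0.18, adjusted p = 0.436). Per kilobase it stood at 1.46% to 3.74% of its partner, so it is a rare transcript here. The partner *Cox6b1* had 122, 124 and 107 CPM against 124, 126 and 138 CPM and a log2 fold change of 0.13, with overlapping groups.

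*Cox6a1*, the liver-type and brain isoform of subunit VIa (ENSMUSG00000041697, chr5:115345642-115348981), had 184, 195 and 187 CPM with vehicle and 213, 197 and 211 CPM with SP. The groups did not overlap, with library vehicle 2 close to SP 2 (log2 fold change 0.13, SE 0.057, adjusted p = 0.493). *Cox7a2l* (ENSMUSG00000024248, chr17:83501918-83517330), which tethers complex IV to complex III in supercomplexes, had 111, 121 and 115 CPM with vehicle and 126, 124 and 133 CPM with SP. Its groups did not overlap either (log2 fold change 0.14, SE 0.057, adjusted p = 0.476). The subunit *Cox7a2* itself had 79.8, 89.8 and 76.7 CPM against 84.9, 84.0 and 103 CPM, so that *Cox7a2l* stood at 77.1% to 89.3% of its level per kilobase.

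*Cox8a*, a short membrane subunit, had 257, 284 and 250.0 CPM against 302, 276 and 314 CPM, where library vehicle 2 exceeded SP 2 (log2 fold change 0.17, SE 0.075, adjusted p = 0.504). *Cox5b*, a subunit on the matrix side, had 144, 143 and 131 CPM against 155, 145 and 163 CPM without overlap (log2 fold change 0.15, SE 0.067, adjusted p = 0.515). *Cox4i1*, the common isoform of subunit IV, had 276, 308 and 288 CPM against 294, 301 and 309 CPM, and its log2 fold change was 0.053. *Cox7b* had 111, 125 and 95.6 CPM against 121, 99.9 and 131 CPM and *Ndufa4* had 163, 186 and 153 CPM against 178, 157 and 195 CPM. Both followed the common order of nuclear members, lowest in library vehicle 3 and highest in SP 3.

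**Figure D5:**
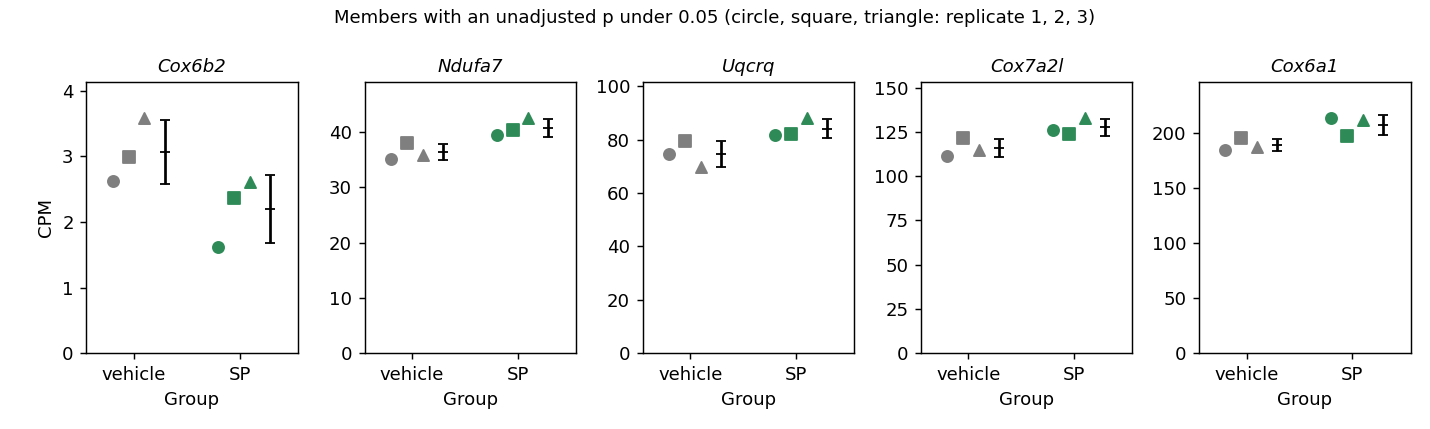
CPM in each library for the 5 members with an unadjusted p under 0.05 (circle, square and triangle for replicates 1, 2 and 3; black marks are mean ± SD, n = 3; axes start at 0). *Cox6b2* is lower and the other 4 are higher in the libraries labelled SP, with narrow gaps between the groups and FDR from 0.436 to 0.493.

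The less common isoforms and relatives of these subunits were rare in every library, and the cells they come from were not tested. *Cox4i2*, which lung and some vascular cells use, had 0.817, 0.566 and 0.653 CPM against 1.07, 0.830 and 0.763 CPM, and per kilobase 0.190% to 0.375% of the level of *Cox4i1*. Of the heart and skeletal muscle isoforms, *Cox6a2* had 2.49, 1.94 and 2.00 CPM against 2.05, 1.37 and 2.20 CPM, 0.584% to 1.14% of *Cox6a1* per kilobase. *Cox7a1* had 1.03, 0.727 and 1.20 CPM against 0.724, 1.12 and 0.584 CPM, 0.850% to 2.34% of *Cox7a2* per kilobase. *Cox8b* had 0.473, 0.445 and 0.544 CPM against 0.341, 0.498 and 0.449 CPM, 0.173% to 0.333% of *Cox8a* per kilobase. *Ndufa4l2*, a relative of *Ndufa4* known to rise in low oxygen, had 1.25, 1.90 and 1.92 CPM against 1.96, 1.58 and 1.48 CPM, 0.374% to 0.620% of *Ndufa4* per kilobase. Each of these 5 had overlapping groups, and the SE of their log2 fold changes was 0.21 to 0.37, so a log2 change of 0.3 was not detectable in them at this depth.

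The 6 members under the filter had almost no counts. *Cox7b2*, the testis partner of *Cox7b*, had counts of 1, 1 and 0 with vehicle and of 1, 6 and 3 with SP. *Cox8c* had 0 counts in each library, which allows up to 0.109 to 0.135 CPM. The others were the processed pseudogenes *Ndufa11b*, *Ndufs6b* and *Cox6c2* and the further row of *Atp5o*, each with at most 2 counts in any library. *Ndufb4c*, a processed pseudogene that passed the filter, shares 100% of its 31-base sequences with other genes, so its counts cannot be told from those of *Ndufb4*.

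In complex V, 17 of 19 members tested had a log2 fold change above 0, with a median of 0.053, and for none did the groups separate. Of the catalytic head, *Atp5b* had 892, 929 and 876 CPM against 896, 871 and 922 CPM and a log2 fold change of -0.0046 with an SE of 0.063, and the alpha subunit *Atp5a1* one of 0.018. The head and central stalk had a median of 0.021 over 5 members, and the membrane part one of 0.10 over 7.

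The proton-driven c ring is encoded by 3 genes that give the same mature protein. *Atp5g3* had 141, 161 and 142 CPM against 142, 148 and 166 CPM. *Atp5g1* had 109.8, 112 and 113 CPM against 108, 116 and 116 CPM. *Atp5g2* had 68.3, 76.3 and 68.9 CPM against 78.1, 70.7 and 80.7 CPM. The mix was steady, as *Atp5g1* stood at 18.7% to 21.5% and *Atp5g2* at 58.2% to 67.5% of *Atp5g3* per kilobase over the 6 libraries. The order of *Atp5g1* and *Atp5g2* hangs on the lengths used, 2675.5 bases for *Atp5g1*, 586 for *Atp5g2* and 718.5 for *Atp5g3*. In CPM, *Atp5g1* lay above *Atp5g2* in every library. *mt-Atp6*, the channel subunit beside the ring, had 8417, 8370.0 and 8856 CPM against 9916, 7003 and 9479 CPM and a log2 fold change of -0.025 without and 0.026 with its copy. *mt-Atp8*, its small neighbour, had 1342, 1293 and 1178 CPM against 1186, 1218 and 1528 CPM, with library vehicle 3 lowest and SP 3 highest, unlike the other mitochondrial members.

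The promoters of nuclear members were searched for sites of regulators that respiratory genes are known for. Whether such sites bear on how the members varied between libraries was not tested. RefSeq (GRCm38.p6) gave windows from 250 bases before to 50 after the start for 76 nuclear members. The letters GCGCATGC of NRF1 were found on either strand in 12 members (15.8%) beside 3.05% of all 27025 genes with a window. CCGGAAG of the ETS factor GABPA was in 19 (25.0%) beside 9.93%, AAGATGGC of YY1 in 11 (14.5%) beside 3.19%, and AAGGTCA of ERRA in 8 (10.5%) beside 5.38%. Among the 17492 protein-coding genes with a window the shares were 3.94%, 12.95%, 3.57% and 4.73% in the same order. The letters of GABPA and YY1 can overlap by AAG. A match is a description of the letters and not a bound site. The 250 bases before the start of *Cox6a1* (chr5:115348959-115349208, minus strand) and *Atp5k* (chr5:108434400-108434649, minus strand) are shown because both windows hold an NRF1 match, here in capitals with the GABPA match of *Cox6a1* on the reverse strand nearer the start. The 10 capitals of NRF1 are a match on each strand that overlap.
Cox6a1: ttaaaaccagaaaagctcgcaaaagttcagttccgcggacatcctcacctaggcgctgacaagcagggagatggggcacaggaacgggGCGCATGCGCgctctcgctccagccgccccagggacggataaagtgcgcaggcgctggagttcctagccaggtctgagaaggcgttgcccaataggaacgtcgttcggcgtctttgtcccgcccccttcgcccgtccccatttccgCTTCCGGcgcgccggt
Atp5k: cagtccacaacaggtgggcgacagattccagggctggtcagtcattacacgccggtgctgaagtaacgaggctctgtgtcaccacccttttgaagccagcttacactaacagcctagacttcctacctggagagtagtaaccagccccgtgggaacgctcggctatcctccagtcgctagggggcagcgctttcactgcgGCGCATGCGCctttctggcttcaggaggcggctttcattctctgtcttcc

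Around the members, 13 lists of genes for assembly, mitochondrial gene expression, regulators and neighbouring pathways held 164 genes tested. None was called, and 2 had an unadjusted p under 0.05 in the higher and 5 in the lower direction, 4.27% of them beside 10.1% of all genes tested. The 164 include *Scaf1*, read under an alternative name of *Cox7a2l*, although that row is a separate gene (142 to 156 CPM). *Ppargc1a*, the coactivator that drives mitochondrial biogenesis, had 56.1, 53.6 and 58.5 CPM against 50.8, 42.7 and 47.9 CPM. All libraries labelled SP lay below those labelled vehicle (log2 fold change -0.25, adjusted p = 0.347), which did not pass the test. Of the factors whose sites were searched, levels were 18.4, 17.3 and 16.5 CPM against 19.1, 20.5 and 19.4 CPM for *Nrf1* and 30.3, 28.8 and 29.0 CPM against 29.7, 29.8 and 27.7 CPM for *Gabpa*, with log2 fold changes of 0.17 and -0.016. The groups of *Nrf1* did not overlap, with all libraries labelled SP above those labelled vehicle (adjusted p = 0.515), and those of *Gabpa* did. *Yy1* had a log2 fold change of 0.049. *Esrra* had 0.024, *Tfam*, which packages and transcribes mitochondrial DNA, 0.040, and *Lrpprc*, which stabilizes mitochondrial mRNA, -0.0065 as log2 fold change.

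In the other lists, the lowest p belonged to *Pfkl*, a phosphofructokinase of glycolysis, with 215, 209 and 206 CPM against 237, 259 and 234 CPM, a log2 fold change of 0.21 and an adjusted p = 0.351. In the same list another phosphofructokinase, *Pfkp*, had 278, 263 and 268 CPM against 239.9, 233 and 257 CPM, lower without overlap (log2 fold change -0.15, adjusted p = 0.432). *Tefm*, the elongation factor of mitochondrial transcription, had 3.57, 3.96 and 4.10 CPM against 4.69, 4.73 and 5.57 CPM, and *Hccs*, which attaches heme to cytochrome c, had 19.0, 20.0 and 21.5 CPM against 17.2, 16.2 and 18.9 CPM. Groups did not overlap for *Pfkl*, *Tefm* or *Hccs*, and the log2 fold changes of *Tefm* and *Hccs* were 0.36 and -0.21 (FDR 0.450 and 0.437). *Suclg2* of the citric acid cycle had -0.19 (adjusted p = 0.459). In the lists of complex I, II and IV assembly the lowest p belonged to *Acad9*, *Sdhaf4* and *Cox14*, with log2 fold changes of 0.091, 0.22 and 0.12. *Atpaf2* of ATP synthase assembly had -0.11, the prohibitin *Phb* 0.12, the ribosomal protein *Mrps5* -0.14, the outer membrane pore *Vdac3* 0.10 and the uncoupling protein *Ucp2* -0.34.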

How the data were processed

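Hippocampal RNA of 6 mice, 3 in each group, was analysed. The authors trimmed the reads with Trim Galore, aligned them to GRCm38 with STAR and quantified them with Salmon, and they deposited estimated counts per gene, with no scaling for depth or length. The library kit was stranded mRNA. Columns were matched to mice by the labels.

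The estimated counts were rounded and tested in R 4.3.3 with edgeR 4.0.16 over the whole table, using filterByExpr (minimum count 10, minimum total 15; 17069 genes kept), TMM normalization and glmQLFTest. The replicate number was a block, since the study adjusts for replicates. The adjusted p (FDR) is by Benjamini-Hochberg over all genes tested, and a call needed FDR < 0.1 with |log2FC| > 0.3. SE denotes the log2 fold change divided by the square root of F. Levels per kilobase use the median length of a gene's transcripts in GENCODE M21, which holds 55154 of the 55421 identifiers, since the annotation release is not given in the sources used here. Sequences shared between genes were counted as runs of 31 bases in the same annotation.

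The members, the gene lists and the tests were chosen with earlier results of these data known. Values in every library are given for the mitochondrial members, the 10 members with the lowest p, the member with the highest level per kilobase in each complex, the tissue isoforms with their partners, and members under the filter. In the other lists the gene with the lowest p and the named regulators are given, some by log2 fold change alone. *Ndufaf1*, *Ndufaf3*, *Pfkp*, *Yy1* and the members given by fold change alone were picked by role or after their values were seen. Alternatives used DESeq2 1.42.0, limma 3.58.1 (voom), other normalizations and filters, no block, a correction for length and GC content, and each replicate number left out. The main fit was tested on simulated data with 200 changed genes.

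The labels do not say that a number marks one litter or day, and the deviations of same-numbered mice from their group means had Pearson's r across genes of 0.0140, -0.0656 and 0.0734. Depth was 22349941 to 27605937 counts per library, and the limit for 0 counts covers counting error only.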

Additional observations from a re-analysis of the deposited data

How the results depend on the processing

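No member was called under any alternative. Of 5 members with an unadjusted p under 0.05, the number became 14 without a filter on low counts, 13 with no replicate block and 2 in DESeq2 with the replicate block. Leaving out one replicate number gave 2 to 40 members, with 40 when number 2 was left out. Shares of all genes were counted only for the main fit and for the fit without number 2. The other numbers have no background beside them. The fits without each number keep 2 mice per group and few degrees of freedom. The deviations of same-numbered mice do not pair them, and the block changed no call. Of 552 fold changes of 45 named members under the alternatives, 510 kept their direction and 42, of 21 members, did not; none of these passed the test, and the causes were not tested.

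For *Sdha*, the log2 fold change was -0.0011 with relative log expression, -0.0018 with library sizes without mitochondrial genes, -0.0049 with no filter, -0.0048 with at least 10 counts in every library and -0.0011 in DESeq2. With no replicate block it was 0.0064 for *mt-Atp6*. After correction for length and GC content it was 0.0025 for *Atp5b*, 0.014 for *Uqcrc2*, 0.035 for *mt-Nd1*, 0.054 for *mt-Co1*, -0.091 for *mt-Atp8*, 0.081 for *mt-Atp6*, 0.074 for *mt-Co3*, 0.11 for *mt-Nd4*, 0.063 for *mt-Cytb*, -0.12 for *mt-Nd4l*. With the nuclear copies added, an alternative chosen after seeing the data, it was 0.026 for *mt-Atp6*, 0.020 for *mt-Co3*, -0.076 for *mt-Nd3*, -0.033 for *mt-Nd4l*. Over the fits that left out one replicate number, log2 fold changes ranged as follows: *mt-Co2* -0.00039 to 0.14, *Atp5b* -0.047 to 0.040, *Ndufa4l2* -0.32 to 0.17, *mt-Atp6* -0.24 to 0.15, *mt-Co3* -0.094 to 0.092, *mt-Cytb* -0.12 to 0.0020, *mt-Nd4l* -0.11 to 0.22, *Atp5g3* -0.060 to 0.12, *Sdha* -0.042 to 0.029, *Ndufa4* -0.061 to 0.24, *Cox7b* -0.11 to 0.28, *Cox7a2* -0.0060 to 0.26, *Uqcrh* -0.056 to 0.21, *mt-Atp8* -0.13 to 0.15, *mt-Nd3* -0.11 to 0.43, *mt-Nd4* -0.12 to 0.019, *Ndufaf2* -0.0012 to 0.20, *Cox7a1* -0.77 to 0.066.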
